A study of Mus musculus with 31 samples.

Results

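The genes described here are 10 antioxidant and metallothionein genes, Sod1, Sod2, Cat, Gpx1, Gclc, Txnrd1, Nqo1, Hmox1, Mt1 and Mt2, chosen by name from the 39017 genes counted in mouse gastrocnemius muscle. The study combined loss of MuRF1 with a diet rich in fat in both sexes. MuRF1 is the muscle ubiquitin ligase encoded by Trim63. The labels name the genotypes as wild type and MuRF1 -/- and give no strain. All mice ate standard chow after weaning, and at 8 weeks of age the high-fat groups were moved to a lard-based diet with 45% fat. Every muscle was taken at 30 weeks, so age was shared by all groups.

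Of 31 libraries, 30 were placed in 8 groups. In each sex there were 4 libraries of wild types on chow, 4 of knockouts on chow, 4 of wild types on high fat and 3 of knockouts on high fat. A library was placed by the animal number in its description, matched to the title that carries that number. In 19 records this number differs from the one in the record's own title, and in 4 of the 30 libraries the own title would give another group. Libraries were taken as separate animals because their animal numbers differ.

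Total counts ran from 9342028 to 14919379 per library. Levels are in CPM, read counts relative to the library's total after TMM scaling. Trim63 lay between 0.487 and 7.75 CPM in the knockout libraries and between 107 and 271 CPM in those labelled wild type. The wild-type libraries male chow 3, female chow 1 and female high fat 4 held less than 150 CPM of it. The 4 libraries whose own title gives another group would also change genotype by that title. Their Trim63 was 1.83 CPM in male knockout high fat 3, 0.81 CPM in female knockout chow 4, 212 CPM in female wild type chow 4 and 124 CPM in female wild type high fat 4. Each value lies on the side of the genotype used here. The muscle markers Ckm (8595 to 15821 CPM) and Myh4 (41690 to 93043 CPM) were high in every library. Keratinocyte markers, summed over 7 genes, were above 10 times the median of all libraries (1.84 CPM) in female wild type chow 3, female knockout chow 1 and female knockout chow 3, where they reached 45.7 CPM and 85.1 CPM in the respective groups. Results that change without these libraries are given with and without them.

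These genes cover several layers of defence against reactive oxygen and metals. Superoxide dismutases turn superoxide into hydrogen peroxide, which catalase and glutathione peroxidases then remove. Glutamate-cysteine ligase starts the synthesis of glutathione, and thioredoxin reductase, Nqo1 and heme oxygenase are classical targets of the transcription factor Nrf2 (Nfe2l2), which acts at antioxidant response elements. Metallothioneins are small cysteine-rich proteins that bind zinc and copper. The transcription factor MTF1 drives them at metal response elements, and glucocorticoids are also known to induce them.

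All 10 genes passed the filter on low counts. Gene positions below are those of the GENCODE annotation on mm10. Per kilobase of the exons of coding transcripts, Sod1 had the highest median, 150.2 RPKM (CPM divided by that length) over the 30 libraries. Gpx1 (41.5 RPKM), Cat (40.1 RPKM) and Sod2 (38.0 RPKM) followed, then Txnrd1 (20.3 RPKM) and Nqo1 (16.2 RPKM). The remaining levels were lower, at 6.87 RPKM for Mt2, 5.50 RPKM for Mt1, 3.89 RPKM for Gclc and 3.75 RPKM for Hmox1. The place of Sod1 rests on this length, which is 641 bases. Over all 3970 exon bases annotated for the gene its median is 24.3 RPKM, and with lengths taken that way Cat (40.1 RPKM) and Gpx1 (30.9 RPKM) stand above it and Sod2 (22.3 RPKM) below. The genes also differed in how much they varied between animals of 1 group. The residual SD of log2 CPM was 0.55 for Mt2 and 0.37 for Mt1, at percentiles 92.8 and 75.6 of all tested genes, against 0.12 for Sod2 and 0.11 for Txnrd1, at percentiles 5.91 and 5.32. For each gene the 8 groups were ordered by mean level, and in all 10 orders 0 of the 7 neighbouring pairs of groups had ranges that did not overlap. The highest and lowest groups, picked as the extremes of 8, overlapped for Mt1 and Mt2 and not for the other genes. Neither kind of overlap was counted over all tested genes, so these are no results about the 10.

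**Figure D1:**
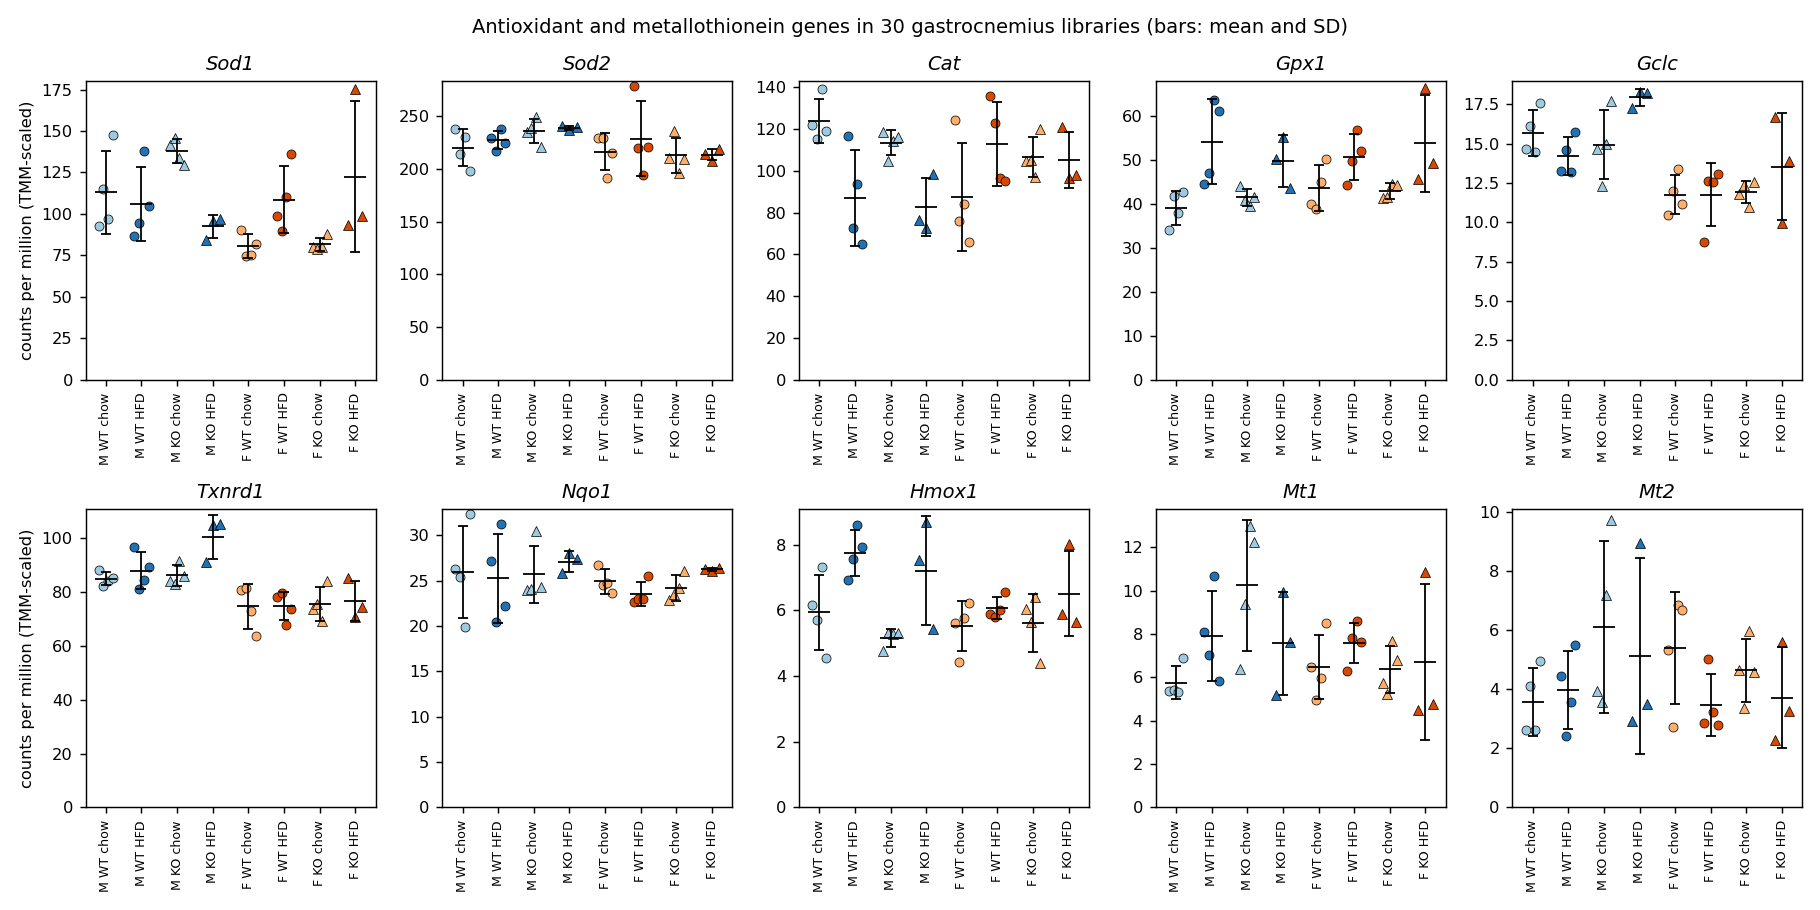
Level of each gene in CPM (vertical axis, scaled by TMM, starting at 0) for the 8 groups (horizontal axis, M male, F female, WT wild type, KO knockout, HFD high-fat diet), with 1 point per library and bars for the mean and SD. The means of Sod1 are lowest in the female chow groups (80.5 and 81.6 CPM), Gclc and Txnrd1 sit lower in the orange female groups, and Mt1 and Mt2 scatter most.

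Sod1 (chr16:90220754-90226329), the copper and zinc superoxide dismutase of the cytosol, responded to the diet differently in the sexes. In male knockouts it read 142, 146, 134 and 129.8 CPM on chow and 84.3, 96.0 and 97.2 CPM on high fat. These groups did not overlap, and the high-fat libraries were the lower ones. In female knockouts it read 79.9, 79.0, 80.1 and 87.6 CPM on chow and 93.5, 175 and 98.7 CPM on high fat. Here the groups again did not overlap, but the high-fat libraries were higher, with replicate 2 far above the rest.

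In wild-type males Sod1 read 92.6, 115, 96.7 and 148 CPM on chow and 86.8, 94.4, 138 and 105 CPM on high fat, which overlap over most of their range. Wild-type females held 90.1, 74.9, 75.3 and 81.9 CPM on chow and 99.0, 89.5, 110.3 and 136 CPM on high fat. Only the lowest high-fat library fell within the chow range.

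A difference is called below when edgeR's quasi-likelihood test, fitted over the 14024 genes that passed the filter, gives a Benjamini-Hochberg adjusted p under 0.05. Values after ± are standard errors of log2 differences. The diet response of Sod1 was larger in females than in males by 0.84 ± 0.17 on the log2 scale (95% interval 0.49 to 1.19 on that scale, adjusted p = 0.000276 in edgeR), which is a 1.79-fold difference of responses. Within strata, edgeR called Sod1 lower with high fat in male knockouts (-0.58 ± 0.18, adjusted p = 0.0499) and higher in female knockouts (0.58 ± 0.17, adjusted p = 0.0211). The values were -0.09 ± 0.16 in male wild type (adjusted p = 0.9) and 0.43 ± 0.16 in female wild type (adjusted p = 0.051), neither of which passed. The female wild-type difference was called without female wild type chow replicate 1 (0.50), high fat replicate 1 (0.47) or high fat replicate 2 (0.52). The male call was lost when any of 6 of the 7 libraries of those groups was left out (adjusted p up to 0.206 in edgeR), and without the keratinocyte-high libraries (-0.59, adjusted p = 0.0646). Without female knockout high fat replicate 2 the female estimate was 0.24 (adjusted p = 0.439 in edgeR), and without the keratinocyte-high libraries it was 0.56 (adjusted p = 0.156). The difference between the sexes was called without each library in turn, between 0.68 and 0.95. The genes most like Sod1 over the 30 libraries were the ribosomal protein gene Rplp2 (Pearson r of log2 CPM 0.96), the prefoldin subunit Pfdn5 (0.95) and the fast troponin T gene Tnnt3 (0.95). The likeness is a description, since the depth and cell makeup of a library enter the values of both genes.

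Catalase, encoded by Cat (chr2:103453849-103485160), breaks down hydrogen peroxide in peroxisomes. In wild-type males it read 122, 115, 139 and 119 CPM on chow and 117, 72.8, 93.7 and 65.0 CPM on high fat. In male knockouts it read 118, 105, 114 and 116 CPM on chow and 76.4, 72.7 and 98.6 CPM on high fat. High-fat males were thus mostly lower than chow males, and the male knockout groups did not overlap. Wild-type females held 124, 75.8, 84.1 and 65.7 CPM on chow and 136, 123, 96.7 and 94.9 CPM on high fat. Female knockouts held 105, 105, 96.9 and 119.9 CPM on chow and 121, 96.5 and 98.0 CPM on high fat. Both female pairs of groups overlapped.

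The diet response of Cat differed between the sexes by 0.65 ± 0.17 on the log2 scale (adjusted p = 0.00273 in edgeR, 95% interval 0.31 to 1.00), with the female response the higher. The strata gave -0.51 ± 0.16 in male wild type (adjusted p = 0.203), -0.46 ± 0.18 in male knockout (adjusted p = 0.107), 0.36 ± 0.16 in female wild type (adjusted p = 0.0981) and -0.02 ± 0.18 in female knockout (adjusted p = 0.946). None of these edgeR tests passed on its own. Without female wild type chow replicate 1, which had the highest Cat of its group, Cat was called higher with high fat in female wild type (0.59, adjusted p = 0.00909 in edgeR). Genes of fatty acid oxidation were among those most like Cat, with r = 0.82 for Acadl and 0.81 for Hadhb, after Plbd1 at 0.83.

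Sod1 and Cat were the 2 of 10 genes called for this difference of responses, beside 45.2% of all genes tested, so the share is below that background. In the strata 1 of 10 genes was called in male knockouts (5.83% of all genes), 1 in female knockouts (19.2%), and 0 each in male wild type (0.349%) and female wild type (25.4%). At an unadjusted p under 0.05 edgeR gave 3 and 2 genes in the male and female wild-type strata. Of all 14024 genes tested, 1491 and 5395 had such a p in these strata. DESeq2 called 1 in male wild type, beside 133 of 13104 genes (1.01%), and 0 in female wild type. Markers of other cell types moved with the same contrast. The diet response was called lower in females for 8 of 10 macrophage and 6 of 8 fibroblast markers, and the estimates of all 10 and all 8 were negative, with medians of -1.08 and -1.15. For muscle fibre markers it was called higher in 6 of 8 and lower in 1, with a median of 0.58. For slow or oxidative fibre markers it was called higher in 4 of 7 (median 0.85). It was called lower for 5 of 6 adipocyte markers (median -1.62) and 3 of 5 red blood cell markers (median -1.23). Of 7 endothelial markers 3 were called lower and 1 higher (median -0.35). Summed fibroblast markers ran from 187 to 673 CPM in male knockout chow and 610 to 909 CPM in male knockout high fat, and from 1345 to 1766 CPM in female knockout chow and 882 to 1103 CPM in female knockout high fat. Their part in the results on Sod1 and Cat was not tested. In bulk tissue fewer cells of a type and less RNA per cell cannot be told apart.

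Sod1 shares a 465-base stretch of 97.9% identity with the transcript of Gm8566 and overlaps Scaf4 on the opposite strand. Its counts are uncertain to that extent, since no source used here states the strand setting of the counting. The median count of Gm8566 was 1.43% and that of Scaf4 14.1% of the Sod1 median.

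**Figure D2:**
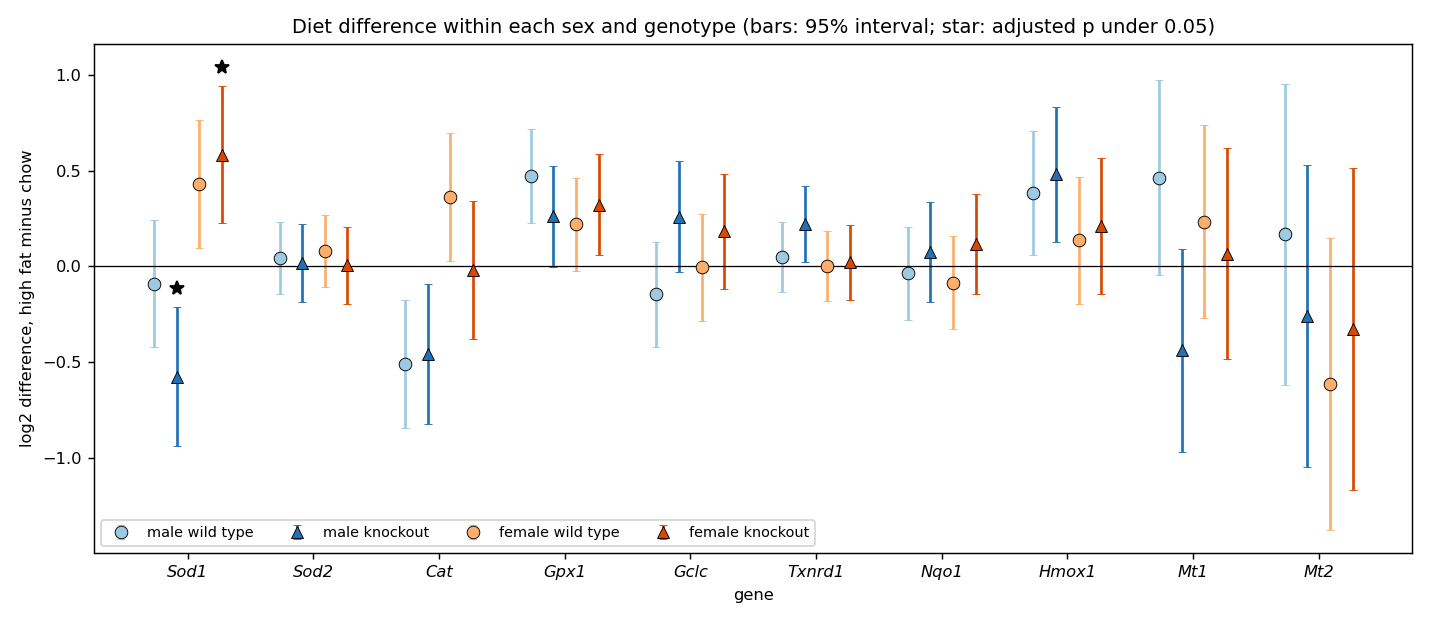
Log2 difference between high fat and chow (vertical axis) for each gene (horizontal axis), with 1 marker per sex and genotype, bars for the 95% interval and a star where edgeR's adjusted p was under 0.05. Only Sod1 carries stars, at -0.58 in male knockouts and 0.58 in female knockouts, and the male markers of Cat lie near -0.5 while the female ones lie at 0.36 and -0.02.

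Sod2 (chr17:13006846-13040063), the manganese superoxide dismutase of mitochondria, stayed within a narrow band. It ran from 192 to 279 CPM over the 30 libraries, and female wild type high fat replicate 1 held the top value. Its diet difference averaged over sex and genotype was 0.04 ± 0.05 (adjusted p = 0.708 in edgeR), with a 95% interval of -0.06 to 0.13. Its pattern was most like that of Dlat, a subunit of the pyruvate dehydrogenase complex (r = 0.90). No contrast called it, and its largest estimate was -0.15 ± 0.10 for the sex-by-genotype difference.

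Gpx1 (chr9:108338903-108340343), the main cytosolic glutathione peroxidase, was higher with the high-fat diet. In wild-type males it read 34.1, 41.8, 38.0 and 42.6 CPM on chow and 44.6, 47.2, 63.7 and 61.3 CPM on high fat, with no overlap. Male knockouts held 44.1, 40.9, 39.6 and 41.6 CPM on chow and 50.3, 55.3 and 43.7 CPM on high fat. Only replicate 3 of the high-fat group lay below the highest chow library. In wild-type females the values were 40.1, 38.9, 45.1 and 50.4 CPM on chow and 44.4, 49.8, 57.0 and 52.0 CPM on high fat. Female knockouts, which did not overlap, held 41.3, 41.7, 44.6 and 44.4 CPM on chow and 45.6, 66.4 and 49.4 CPM on high fat.

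Averaged over sex and genotype the difference was 0.32 ± 0.06 on the log2 scale, 24.7% higher with high fat (adjusted p = 0.0141 in edgeR). The estimates in the strata were 0.47 in male wild type, 0.26 in male knockout, 0.22 in female wild type and 0.32 in female knockout, and none passed the test alone. Without female knockout high fat replicate 1 the female knockout difference was called (0.44, adjusted p = 0.0264 in edgeR). The response did not differ detectably between the sexes (-0.10 ± 0.12, 95% interval -0.35 to 0.16). Gpx1 was the 1 of 10 genes called for the average diet difference, against 0.827% of all genes tested. The call was lost without the 3 libraries high in keratinocyte markers (0.32, adjusted p = 0.0785 in edgeR), and with a correction for the GC content of genes (0.21, adjusted p = 0.181). The gene with the pattern most like Gpx1 over the 30 libraries was Ftl1, the ferritin light chain, with a Pearson r of log2 CPM of 0.73, ahead of Eif4a3 at 0.70 and Mms19 at 0.69.

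**Figure D3:**
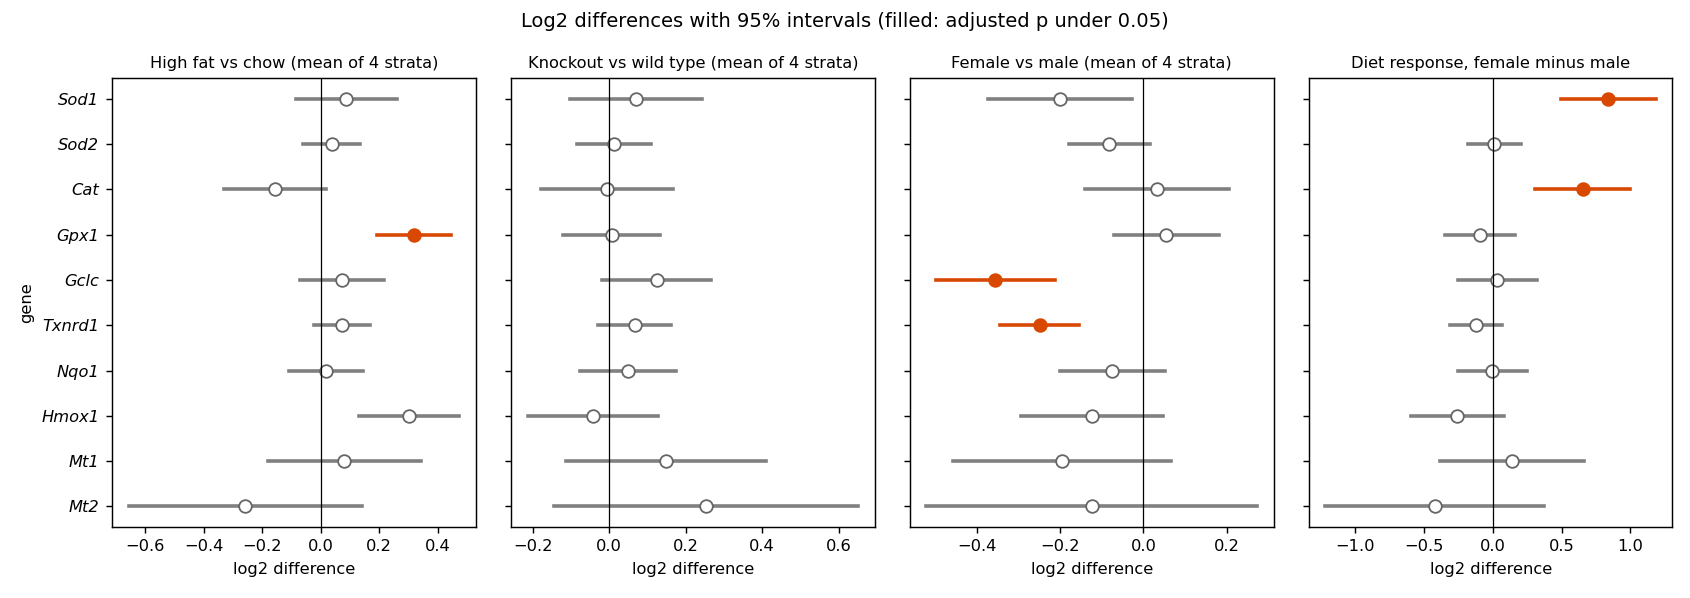
Log2 difference (horizontal axis) with its 95% interval for each gene (vertical axis) in 4 contrasts, filled orange where edgeR's adjusted p was under 0.05. Gpx1 is filled for diet at 0.32, Gclc and Txnrd1 for sex at -0.36 and -0.25, and Sod1 and Cat for the diet response of females minus males at 0.84 and 0.65, while no gene is filled for genotype.

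Gclc and Txnrd1, which supply the glutathione and thioredoxin systems, were lower in females. Gclc (chr9:77754535-77794485) encodes the catalytic subunit of glutamate-cysteine ligase, and Txnrd1 (chr10:82833951-82897712) the cytosolic thioredoxin reductase. The RefSeq promoter window of Txnrd1 that holds an antioxidant response element core is shown because this gene had the smallest p for sex of the 10. It spans 250 bases before to 50 after a transcript start, at chr10:82858956-82859255 on the plus strand of GRCm38.p6. The capitals mark the core TGACNNNGC, found here on the opposite strand. The core occurs in 12.4% of 32851 promoter windows of that length, searched on both strands, and in 1 of the 3 windows of Txnrd1. The windows of Sod1 and Mt2 hold it too, and those of Nqo1, Gpx1, Sod2, Cat and Mt1 do not. A part of the core in the sex difference was not tested.

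Txnrd1 promoter: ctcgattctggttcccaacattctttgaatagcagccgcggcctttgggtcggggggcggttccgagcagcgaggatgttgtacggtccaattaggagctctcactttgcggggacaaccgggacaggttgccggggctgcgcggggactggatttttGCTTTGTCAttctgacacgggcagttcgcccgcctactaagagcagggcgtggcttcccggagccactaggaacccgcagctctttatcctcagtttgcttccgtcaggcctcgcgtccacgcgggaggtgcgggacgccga

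Over 15 male libraries Txnrd1 had a lowest value of 81.2, a median of 86.0 and a highest value of 105 CPM. Over 15 female libraries these were 63.5, 74.3 and 85.1 CPM. The ranges overlap from the lowest male value of 81.2 CPM to the highest female value of 85.1 CPM, and libraries of both sexes lie in that stretch. Averaged over genotype and diet the female level was 0.25 ± 0.05 lower on the log2 scale, a change of -15.9% (adjusted p = 0.000126 in edgeR). The 4 male group means ran from 84.9 to 100.4 CPM, above the 4 female ones at 74.7 to 76.7 CPM.

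Gclc had a lowest value of 12.3, a median of 15.0 and a highest value of 18.3 CPM in males, and 8.77, 12.4 and 16.7 CPM in females. The female level was lower by 0.36 ± 0.07 on the log2 scale, a change of -21.9% (adjusted p = 0.000248 in edgeR). Male knockouts on high fat held 17.3, 18.3 and 18.2 CPM, above all male wild types on high fat at 13.3, 14.6, 13.2 and 15.8 CPM. That genotype difference of 0.34 ± 0.14 did not pass in edgeR (adjusted p = 0.402). Both sex calls were made without each library in turn, between -0.29 and -0.24 for Txnrd1 and between -0.41 and -0.32 for Gclc.

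These were 2 of 10 genes called for sex, against 30.8% of all genes tested, and 8 of the 10 estimates were negative. Over all genes the median estimate was 0.02, with quartiles of -0.11 and 0.20. The signs of the 10 were not tested against those of all genes. The estimate for Sod1 was -0.20 ± 0.08 and did not pass (adjusted p = 0.0702 in edgeR), but was called when any of 7 libraries was left out, with the strongest estimate without female knockout high fat replicate 2 (-0.29, adjusted p = 0.00259). Without that library Mt1 was called lower in females too (-0.33, adjusted p = 0.0281 in edgeR). Over 45 pairs of the 10 genes, Txnrd1 and Gclc were the most strongly correlated across the 30 libraries, with Pearson r = 0.67 (permutation p = 5e-05, adjusted 0.00225) and Spearman rho = 0.75 (permutation p = 1e-05, the smallest possible, adjusted 0.00045). Without the 2 libraries farthest from the Txnrd1 median r was 0.62. After removal of the group means it was 0.20, and the largest value among the 45 pairs was then 0.69, for Gpx1 and Sod1. The permutations ran over all 30 libraries regardless of group, so differences between groups, such as those between the sexes, enter these p-values. Gclc was most like Zcchc2 (r = 0.82) and Txnrd1 most like Cdk8 (r = 0.85), and these values also fell after removal of the group means, to 0.57 and 0.76. Macrophage and fibroblast markers were higher in females, 9 of 10 and 8 of 8 called with medians of 0.58 and 0.81. Slow or oxidative fibre markers (6 of 7, median 0.99) and adipocyte markers (4 of 6, median 1.25) were also called higher. Of the endothelial markers 1 of 7 was called higher (median 0.18), and of the muscle fibre markers 3 of 8 were called lower (median -0.12). The part of these markers in the sex differences was not tested.

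Hmox1 (chr8:75093621-75100589), heme oxygenase 1, degrades heme to biliverdin, iron and carbon monoxide. In wild-type males it read 6.16, 5.72, 7.32 and 4.56 CPM on chow and 6.92, 7.56, 8.60 and 7.92 CPM on high fat. In male knockouts it read 4.76, 5.30, 5.29 and 5.30 CPM on chow and 7.53, 8.69 and 5.42 CPM on high fat. The high-fat males were mostly above the chow males, and the knockout groups did not overlap. In females the ranges were 4.39 to 6.41 CPM on chow and 5.64 to 8.01 CPM on high fat. The average diet difference of 0.30 ± 0.08 did not pass in edgeR (adjusted p = 0.0662), while DESeq2 gave 0.29 with an adjusted p of 0.0399. In male knockouts Hmox1 was called higher with high fat without high fat replicate 3 (0.63, adjusted p = 0.0429 in edgeR). Hmox1 and Gpx1 were correlated over the libraries (r = 0.61, permutation p = 0.00028, adjusted 0.0063, rho = 0.61, permutation p = 0.00051, adjusted 0.0115), with r = 0.48 without the 2 libraries farthest from the Gpx1 median and r = 0.43 after removal of the group means.

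Nqo1 (chr8:107388225-107403206), the quinone reductase often read as an Nrf2 target, was not called in any of the 14 contrasts. It ran from 19.9 to 32.3 CPM, with the widest spread in male wild types. In female knockouts on high fat it read 26.3, 26.1 and 26.4 CPM, above the 22.7, 23.0, 23.0 and 25.5 CPM of female wild types on high fat, but the difference of 0.16 ± 0.13 did not pass in edgeR (adjusted p = 0.79). Its diet and sex differences were 0.02 ± 0.06 and -0.07 ± 0.06.

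Mt1 (chr8:94179082-94180327) and Mt2 (chr8:94172664-94173568) are neighbours on chromosome 8, with RefSeq promoter windows that start 6471 bases apart, both on the plus strand. They are shown because the pair varied together and because of their density of metal response element cores. The searched cores were TGCGCNC and TGCACNC on both strands, and capitals mark them and the antioxidant response element core. The Mt1 window (chr8:94178839-94179138, GRCm38.p6) holds 3 metal cores, a number that 1.97% of all windows reach. The Mt2 window (chr8:94172368-94172667) holds 4, a number that 0.517% of windows reach. It also holds the antioxidant core once, in a stretch that includes the AP-1 motif TGACTCA. At least 1 metal core is present in 25.7% of all windows, and in none of the other windows of these genes. Windows were found for 8 of the 10 genes, without Hmox1 and Gclc.

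Mt1 promoter: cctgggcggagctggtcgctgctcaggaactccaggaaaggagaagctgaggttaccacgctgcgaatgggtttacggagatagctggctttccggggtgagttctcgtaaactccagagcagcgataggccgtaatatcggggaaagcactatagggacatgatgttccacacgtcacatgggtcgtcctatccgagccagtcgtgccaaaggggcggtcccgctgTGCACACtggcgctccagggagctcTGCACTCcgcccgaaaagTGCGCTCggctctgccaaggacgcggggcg

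Mt2 promoter: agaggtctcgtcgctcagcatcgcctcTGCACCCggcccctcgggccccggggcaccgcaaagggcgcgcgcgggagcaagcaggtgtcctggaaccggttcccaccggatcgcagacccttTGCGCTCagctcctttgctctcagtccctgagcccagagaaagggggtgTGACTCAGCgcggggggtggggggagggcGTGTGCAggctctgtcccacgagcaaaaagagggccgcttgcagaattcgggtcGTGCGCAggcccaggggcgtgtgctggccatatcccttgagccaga

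Mt1 was higher in male knockouts than in male wild types on chow. The wild types held 5.39, 5.44, 5.31 and 6.88 CPM and the knockouts 6.39, 9.38, 13.0 and 12.3 CPM, and only knockout replicate 1 lay within the wild-type range. On high fat the male wild types held 8.12, 7.04, 10.7 and 5.84 CPM and the knockouts 5.20, 9.94 and 7.62 CPM, which overlap. Female values ran from 4.52 to 10.9 CPM, with overlap between the genotypes on both diets.

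Mt2 read 2.62, 4.13, 2.62 and 4.96 CPM in male wild types on chow and 3.95, 3.57, 7.20 and 9.73 CPM in male knockouts on chow. The groups overlap, with knockout replicates 3 and 4 above all wild types. Counts of Mt2 were low, between 23 and 129 per library, and those of Mt1 lay between 53 and 155.

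The genotype difference of Mt1 in male chow was 0.84 ± 0.25 on the log2 scale, 1.79-fold (adjusted p = 0.034 in edgeR), and that of Mt2 was 0.79 ± 0.37 (adjusted p = 0.2). The Mt1 call was lost when any of 6 of the 8 libraries was left out, with estimates between 0.72 and 1.03 and adjusted p up to 0.123. Without the wild-type libraries of low Trim63 the estimate was 0.82 (adjusted p = 0.111). Elsewhere the genotype estimates for Mt1 were -0.18 ± 0.27 in females on high fat, -0.01 ± 0.25 in females on chow and -0.06 ± 0.26 in males on high fat. The differences of the genotype response between diets (-0.53 ± 0.26, adjusted p = 0.584) and between sexes (-0.49 ± 0.26, adjusted p = 0.54) did not pass in edgeR, so the call in 1 stratum is not shown to be particular to it.

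Mt1 was the 1 of 10 genes called for genotype in male chow, against 6.95% of all genes. The genotype contrast on average (4.39% of all genes called) held 0 of the 10, as did those in females on high fat (0.0713%), females on chow (0.0927%) and males on high fat (0.264%). The genotype-by-diet and sex-by-genotype differences, with 0.107% and 0.0285% of all genes called, also held 0 of the 10. DESeq2 called 0 of the 10 in each of these 6 contrasts. Over all genes it called 98 in males on high fat, 31 in females on chow and 38 in females on high fat. For genotype by diet it called 59 genes and for sex by genotype 71. Without adjustment edgeR gave a p under 0.05 for 2 genes in the genotype-by-diet difference, Gclc (0.30 ± 0.14) and Mt1. It gave such a p for Gclc in males on high fat and for 0 genes in the other 4 contrasts. Of all 14024 genes tested, 1178 had such a p for genotype by diet and 1386 for males on high fat. In the other 4 contrasts these were 2764 for average genotype, 1102 in females on high fat, 681 in females on chow and 1428 for sex by genotype.

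Of 16 glucocorticoid responsive genes 9 were called higher in the same comparison and 0 lower, beside 6.95% of all genes called (229 higher, 745 lower). The other 7 did not pass, 3 of the 16 estimates were negative, and the median was 0.69 against -0.02 for all genes. Tsc22d3 (0.84 ± 0.12), Glul (1.49 ± 0.24), Sgk1 (0.71 ± 0.14) and Klf15 (0.79 ± 0.17) were among those called. The summed level of the 16 ran from 1289 to 2192 CPM in male knockout chow and from 764 to 1031 CPM in male wild type chow, with no overlap. In female knockout chow it ran from 1008 to 1161 CPM and in female wild type chow from 854 to 970 CPM. Markers of other cells were lower in the male chow knockouts, with 8 of 8 fibroblast, 8 of 10 macrophage and 5 of 7 endothelial markers called. Summed macrophage markers were 46.9 to 125 CPM there and 112 to 190.0 CPM in male wild type chow. The part of either list in the Mt1 difference was not tested.

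Across the 30 libraries Mt1 and Mt2 were correlated, with Pearson r = 0.59 (permutation p = 0.00069, adjusted 0.0103 over 45 pairs) and Spearman rho = 0.58 (permutation p = 0.0012, adjusted 0.0139). Without the 2 libraries farthest from the Mt1 median r was 0.46, and after removal of the group means it was 0.65. The genes most like Mt1 were Stard3 (r = 0.72), Ddit4 (r = 0.70) and Nfkbia (r = 0.69). Those most like Mt2 were Spidr (r = 0.63), Errfi1 (r = 0.58) and Nfkbia (r = 0.56). Ddit4 and Errfi1 are also in the glucocorticoid list.

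**Figure D4:**
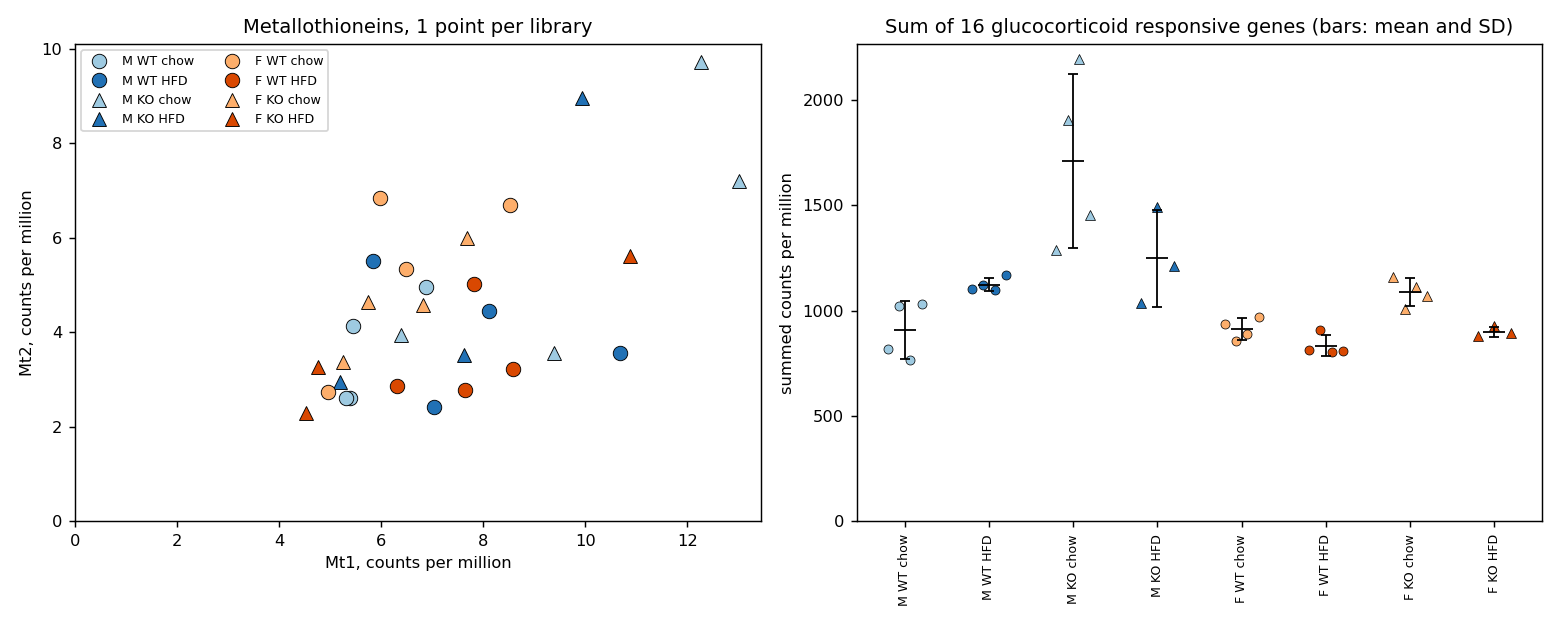
Left, Mt2 against Mt1 in CPM with 1 point per library, where 2 male knockout chow libraries (light blue triangles) hold the highest Mt1, at 13.0 and 12.3 CPM. Right, the summed CPM of 16 glucocorticoid responsive genes by group with the mean and SD, where male knockout chow runs from 1289 to 2192 CPM.

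Other genes of the same pathways were called for the sex difference in the diet response too, in a contrast that called 45.2% of all genes, 3027 higher and 3313 lower of 14024. Of 16 thioredoxin, peroxiredoxin and methionine sulfoxide reductase genes 10 were called higher in females and 1 lower, with a median of 0.38 against -0.03 over all genes. Prdx5 (0.90 ± 0.15) and Prdx2 (0.66 ± 0.12), which reduce peroxides, and Prdx6 (0.54 ± 0.10) and Msra (0.61 ± 0.12) had the smallest p-values. Of 23 glutathione genes tested 11 were called higher and 4 lower, with a median of 0.28. No test set either list against other genes. In female knockouts on high fat the summed thioredoxin list read 1676.8, 2206 and 1677.0 CPM in replicates 1 to 3. The summed 24 glutathione genes read 1160, 1711 and 1178 CPM there, so replicate 2 stood highest in both. The calls in these lists were not counted without that library. Gstm1 (0.66 ± 0.13), Gstp1 (0.82 ± 0.16) and Gsta4 (0.81 ± 0.16), which conjugate glutathione, had a higher diet response in females, and the microsomal Mgst1 a lower one (-1.59 ± 0.17).

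Regulators were split. Mafg (0.54 ± 0.10), a partner of Nrf2, and Sqstm1 (0.56 ± 0.11), which binds the Nrf2 inhibitor Keap1, had a higher diet response in females. Nfe2l2 itself (-0.50 ± 0.12) and the repressor Bach1 (-0.74 ± 0.14) had a lower one. Of 10 regulators 5 were called higher and 2 lower, beside 45.2% of all genes, with a median of 0.09. The calls in the remaining lists were 5 of 9 for superoxide, 5 of 8 for NADPH supply, 3 of 8 for heme and iron and 4 of 9 for zinc and copper. No test set these lists, of 8 to 10 genes each, against other genes, so the counts are no result about them. Among the NADPH suppliers Idh1 (-1.49 ± 0.14) and G6pdx (-1.05 ± 0.24) were lower and Me1 (0.54 ± 0.11) and Taldo1 (0.45 ± 0.11) higher. The superoxide list held 9 genes, for other superoxide dismutases and for sources of superoxide or peroxide. Of these, Cybb (-2.10 ± 0.34), the phagocyte oxidase subunit, Maoa (-0.52 ± 0.10) and Nox4 (-1.18 ± 0.29) were lower, and 2 were higher.

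For heme and iron, Cp (-2.39 ± 0.27) and Tfrc (-0.76 ± 0.26) had a lower response in females and the ferritin heavy chain Fth1 (0.58 ± 0.15) a higher one. For zinc and copper, the exporters Slc30a1 (-1.20 ± 0.16) and Atp7a (-2.12 ± 0.32) and the zinc importer Slc39a10 (-0.78 ± 0.21) were lower, and the copper chaperone Atox1 (0.50 ± 0.16) was higher. Slc30a1 is a known MTF1 target, as the metallothioneins are, and the values of the latter in this contrast were 0.14 ± 0.26 for Mt1 and -0.42 ± 0.39 for Mt2, neither called.

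For the average sex difference, which called 30.8% of all genes (2434 higher and 1883 lower in females), 5 of 10 regulators were called lower and 0 higher, Sqstm1 (-0.32 ± 0.05), Bach1 (-0.36 ± 0.07) and Cul3 (-0.32 ± 0.07) first among them. Gclm, the modifier subunit that pairs with Gclc, was lower as well (-0.35 ± 0.07), but its list was split. Of 23 glutathione genes tested 7 were called higher in females and 5 lower, with a median of -0.01. Of the 16 thioredoxin, peroxiredoxin and methionine sulfoxide reductase genes 2 were called higher and 3 lower, with a median of -0.08. The zinc transporter Slc30a2 was lower by 2.83 ± 0.11 on the log2 scale. Of 9 superoxide genes 6 were called higher in females and 0 lower, with a median of 0.35 against 0.02 over all genes, and of 8 NADPH suppliers 5 were called higher and 1, Me1, lower.

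**Figure D5:**
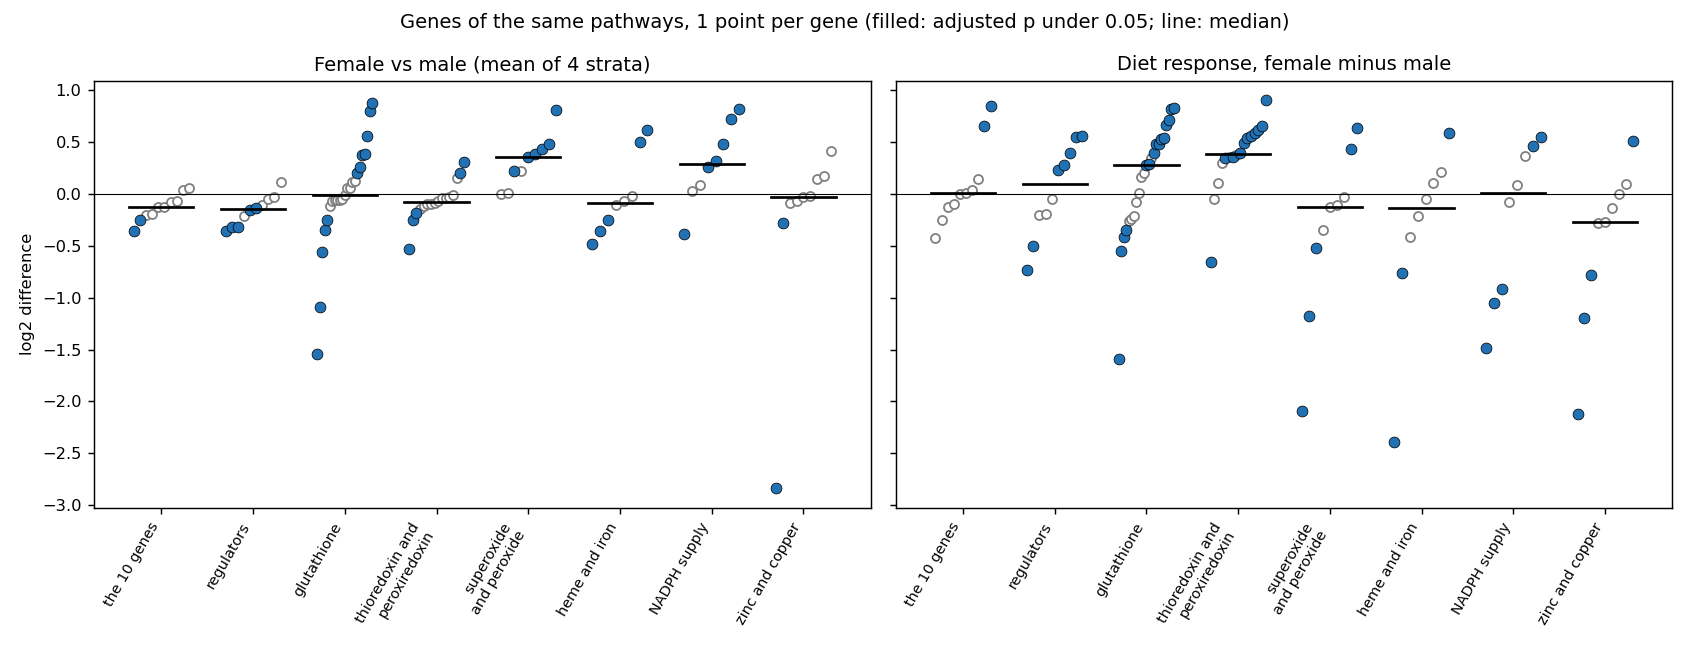
Log2 difference (vertical axis) of each gene in 8 lists (horizontal axis), with 1 point per gene, filled where edgeR's adjusted p was under 0.05 and a line at the list median. On the left (females minus males) Slc30a2 stands lowest at -2.83, and on the right (diet response, females minus males) most thioredoxin and peroxiredoxin genes lie above 0, with a median of 0.38.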

How the data were processed

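RNA was measured in gastrocnemius muscle of 31 mice. For every library the authors deposited raw counts of reads per gene, made with bcl2fastq, featureCounts and the mouse build mm10 per the submitters' processing notes. No source used here states the aligner, annotation or strand setting. Per the labels' protocols, RNA had an integrity number above 8 and was enriched for polyA.

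From the deposited counts, log2 differences were fitted with edgeR 4.0.16 in R 4.3.3 (TMM, filterByExpr with a minimum count of 10, robust quasi-likelihood, 8 group coefficients, 14 contrasts, adjustment over all 14024 tested genes at 0.05). edgeR's common dispersion was 0.0202, that is a CV of 14.2% among animals. A count of 3 is 0.201 to 0.321 CPM, for counting error only. Of 42 pairs of libraries of 1 group, 0 were identical. Symbols were found for 37607 of the 39017 genes. Libraries of 1 group are separate by animal number only, so p-values measure the spread between these samples.

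The 10 genes, the lists and the contrasts were chosen with earlier results of these data known. Named genes are the 10, Trim63, up to 4 genes of each list with the smallest p in a contrast and the 3 genes most like each of the 10, with clone names passed over. Gclm was named after its values were seen. The GC correction used transcripts of 13907 tested genes. Correlations used log2 CPM and 100000 permutations. Replicate numbers were not used to pair animals. Alternatives included DESeq2 1.42.0, other scaling, filters and groupings. The library whose animal number is in no title was left out. The steps were tested on simulated data.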

Additional observations from a re-analysis of the deposited data

Results flagged for a closer look

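The diet response of Sod1 differed between the sexes by 0.84 on the log2 scale, by a test of that difference, and the diet response of Cat by 0.65. Both are described above.

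In groups of 4 libraries, a library was marked when its gap to the nearest other was too large a part of the group's range, which chance gives in about 1 of 20 groups. Of 60 combinations of gene and group 6 were marked. Hmox1 was 4.76 CPM in male knockout chow replicate 1, against 5.29 to 5.30 CPM in the others. Nqo1 was 30.4 CPM in male knockout chow replicate 3, against 24.0 to 24.3 CPM. Nqo1 was also marked in female wild type high fat replicate 4, at 25.5 CPM against 22.7 to 23.0 CPM. Sod1 was 87.6 CPM in female knockout chow replicate 4, against 79.0 to 80.1 CPM. Gclc was 8.77 CPM in female wild type high fat replicate 1, against 12.6 to 13.1 CPM. Mt1 was 6.88 CPM in male wild type chow replicate 4, against 5.31 to 5.44 CPM.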

How the results depend on the processing

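The sex differences of Txnrd1 and Gclc and the sex-by-diet differences of Sod1 and Cat kept their direction and their calls under all 9 alternatives and without each of the 30 libraries in turn. Under the 9 alternatives Sod1 ran from 0.78 to 0.95 and Cat from 0.62 to 0.78. No result reversed. The own titles give 4 of the 30 libraries, and the library placed in no group, a genotype that their Trim63 levels go against. The cause of the following changes was not tested. For the average diet difference, DESeq2 called 2 genes (Gpx1 and Hmox1), and 0 were called with the 31 libraries grouped by their own titles, without the libraries high in keratinocyte markers, and with the GC correction. For diet in male knockouts, 0 were called without the count filter, with the replicate block and without the keratinocyte-high libraries, 3 (Hmox1, Sod1, Cat) by own titles and 2 (Sod1, Cat) with the 2 groups fitted alone. For diet in female knockouts, 0 were called without the keratinocyte-high libraries and 2 (Sod1, Gpx1) with the replicate block. For diet in male wild type, DESeq2 and the replicate block each called 1, Gpx1. For diet in female wild type, the replicate block called 2 (Sod1, Cat), the 2 groups alone 1 (Sod1) and the fit without wild-type libraries of low Trim63 1 (Cat). For genotype in male chow, 0 were called without the filter and without the low-Trim63 libraries. For sex, 4 were called by own titles (Hmox1, Txnrd1, Sod1, Gclc). Leaving out each library in turn gave 0 to 1 genes for diet in male knockouts, 0 to 2 for diet in female wild type and in female knockouts, 0 to 1 for genotype in male chow and 2 to 4 for sex. Same-numbered libraries of different groups had a median correlation of 0.03 over 99 pairs, and 33 of these were over 0.1. Libraries with other numbers had a median of -0.006 over 294 pairs, and 61 of these were over 0.1. Whether the replicate number marks a shared condition was not tested. Mt2, with counts down to 23, had the widest intervals. Sod1 in male knockouts with high fat was -0.54 with the replicate block (adjusted p = 0.065 in edgeR). Over the alternatives other than leaving out single libraries, the number of all genes called ran from 0 to 410 for the average diet difference (116 in the main result), from 5 upward for diet in female wild type (3558), down to 106 for diet in female knockouts without the keratinocyte-high libraries (2688), from 478 to 2295 for diet in male knockouts (818), from 128 to 997 for average genotype (615) and down to 279 for genotype in male chow (974). Leaving out single libraries moved these counts as well. They ran from 23 to 257 for average diet, from 106 (without male knockout high fat 1) to 1384 (without male knockout chow 4) for diet in male knockouts, and from 270 (without female knockout high fat 2) to 3123 in female knockouts. They ran from 1829 (without female wild type high fat 3) to 3717 for diet in female wild type, from 17 to 66 in male wild type (49), from 390 to 1203 for average genotype and from 183 (without male knockout chow 2) to 1598 (without male knockout chow 4) for genotype in male chow. For sex by genotype they ran from 2 to 217 (4), the highest without male knockout chow 4, for genotype by diet from 1 to 45 (15), and for genotype from 16 to 68 in male high fat (37), 3 to 45 in female chow (13) and 2 to 53 in female high fat (10). Sex (3971 to 4759) and sex by diet (5544 to 6717) stayed within 1.5 times. With all exon bases as the length, chosen after seeing the data, the median of Txnrd1 is 11.7 RPKM, below Nqo1.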

Other observations

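Catalase and Gpx1, which both remove hydrogen peroxide, varied in opposite directions. Over the 30 libraries Cat and Gpx1 had Pearson r = -0.51 (permutation p = 0.00361, adjusted 0.0322 over 45 pairs) and Spearman rho = -0.57 (permutation p = 0.00124, adjusted 0.0139). Without the 2 libraries farthest from the Gpx1 median r was -0.59, and after removal of the group means it was -0.52. Sod1 and Mt1 had r = 0.55 (permutation p = 0.00185, adjusted 0.0208) but rho = 0.44 (permutation p = 0.0144, adjusted 0.0923), with r = 0.52 without the 2 farthest libraries and 0.57 after removal of the group means. Txnrd1 and Sod2 had r = 0.50 (permutation p = 0.0043, adjusted 0.0322) and rho = 0.56 (permutation p = 0.00162, adjusted 0.0146). Their r was 0.38 after removal of the group means.

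The library whose animal number is in no title was placed in no group. Its own title gives male knockout high fat, but its Trim63 level was 111 CPM, against 0.487 to 7.75 CPM in the libraries grouped as knockout, and the grouping by own titles counts it as a knockout. With all 31 libraries scaled together it held 100.5 CPM of Sod1, 256 CPM of Sod2, 84.6 CPM of Cat, 51.3 CPM of Gpx1, 9.08 CPM of Hmox1, 6.22 CPM of Mt1 and 3.65 CPM of Mt2.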
